A study of Homo sapiens with 18 samples.

Results

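Cobalamin, or vitamin B12, reaches the enzymes that need it through a chain of dedicated proteins, and 10 genes of that chain were examined in K562 cells after knockdown of a circular RNA. They were taken by gene symbol from a count table of 27781 genes and comprise the carriers TCN1 and TCN2, the receptor CD320, the lysosomal exporters LMBRD1 and ABCD4, the trafficking proteins MMACHC and MMADHC, and the enzyme genes MTR, MTRR and MMUT. TCN1 heads the set and was chosen by its lower counts in the knockdown libraries, so its difference between the groups is given as a description with no test. The other 9 genes were chosen for what they do, though with earlier results of these data known. All 10 passed the filter on low counts, as did 15678 genes of the whole table.

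K562 is an established line from a human chronic myeloid leukemia with the BCR-ABL1 fusion. The knockdown group was transfected with antisense gapmers, oligonucleotides that recruit RNase H, aimed at the junction where circPCMTD1, a circular RNA made from PCMTD1, is closed by backsplicing. The scrambled group received control gapmers, and cells of both groups were harvested 48 hours later and sequenced as rRNA-depleted total RNA. Each group has 3 biological replicates with 3 technical libraries each, summed here per biological replicate, and everything rests on 1 cell line, with no untransfected cells among the samples. The design text calls the replicates biological without naming separate cultures, so p-values measure only the spread between these samples, which may be technical.

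In blood, haptocorrin (the TCN1 product) binds most circulating cobalamin. Transcobalamin (the TCN2 product) delivers cobalamin to cells through the receptor CD320, and the cobalamin bound to transcobalamin is taken up into lysosomes. LMBRD1 and ABCD4 release cobalamin into the cytosol, where MMACHC processes it and MMADHC directs it to methionine synthase (MTR, kept active by MTRR) or to methylmalonyl-CoA mutase (MMUT) in mitochondria. TCN1 is also known as a gene of the specific granules of neutrophils, a lineage that K562 cells do not represent.

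Library totals ran from 19118533 to 29432699 counts, and summed replicates from 63851576 to 76087774. Knockdown libraries 3_3 and 3_2 stood apart by GC content. In them the 10% of tested genes lowest in transcript GC lay 0.30 and 0.24 (log2, difference of medians) above the 10% that were highest, relative to the other libraries of their group, against at most 0.15 either way in the other 16 libraries. PCMTD1, the host gene of the target, was at 20.6 ± 1.13 CPM in scrambled and 12.3 ± 0.515 CPM in knockdown samples (SD, n = 3 each), where CPM are counts scaled to a common library size with TMM factors. That gene-level count adds linear and circular RNA. The labels call the cells lymphoblasts. The 10 erythroid markers summed to between 13225 and 14610 CPM in the 6 samples, led by the globin gene HBG2. The 12 lymphoid markers summed to between 12.5 and 17.1 CPM, with MS4A1 and DNTT at 0 in all libraries, and the 6 monocyte markers to between 1.30 and 2.35 CPM.

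TCN1 lies on the minus strand of chromosome 11 (GRCh38, 59852800 to 59866575) and no other GENCODE 29 gene overlaps it. The sequence just upstream of its first annotated exon is shown because TCN1 had the largest difference among these genes, and that of MTR because its enzyme is the cytosolic end of the pathway. Both come from RefSeq (GRCh38.p14), which had promoter entries for 8 of the 10 genes, and are cut to the bases outside GENCODE exons. TCN1 is chr11:59866576-59866737, minus strand, and MTR is chr1:236795031-236795280, plus strand. Capitals mark motif matches.
TCN1: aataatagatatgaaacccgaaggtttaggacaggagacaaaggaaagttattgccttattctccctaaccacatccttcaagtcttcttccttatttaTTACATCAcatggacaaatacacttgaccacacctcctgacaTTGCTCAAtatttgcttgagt
MTR: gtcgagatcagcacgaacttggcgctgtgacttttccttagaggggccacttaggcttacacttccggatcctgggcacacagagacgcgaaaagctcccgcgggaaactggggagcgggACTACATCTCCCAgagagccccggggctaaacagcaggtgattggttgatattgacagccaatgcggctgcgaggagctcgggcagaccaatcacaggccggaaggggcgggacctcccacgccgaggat

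Both strands of the 250 bases before each RefSeq start were searched for 5 motifs. Percentages are shares of 35116 promoter entries, and a member counts if any of its entries matches. Positions were read in the 2 sequences shown and are counted from the RefSeq start. For TCN1 the sequence shown holds only the first 162 of the 250 bases. It stops short of the RefSeq start, which lies inside the GENCODE exon. A further TCN1 match in the bases left out would have no position here. TCN1 held a C/EBP motif (TTGCNNAA) that begins 109 bases upstream, a motif also found in LMBRD1 and in 9.05% of all promoters. It also held a C/EBP-ATF composite motif (TGATGNAA) that begins 151 bases upstream on the reverse strand, found in 3.14% of all promoters. MTR held a ZNF143-THAP11 motif that begins 130 bases upstream, found in 1.27% of all promoters. The GATA factor motifs AGATAA and TGATAA, found in 9.17% and 6.66% of promoters, were found for 0 of the 8 genes. None of these motifs overlaps another in the 2 sequences shown. A match describes letters only and is no evidence of binding.

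The carriers moved in opposite directions, where TCN1 is the gene chosen for its fall. TCN1 was at 26.3, 25.9 and 25.7 CPM in the 3 scrambled samples and at 18.4, 18.5 and 18.1 CPM in the 3 knockdown samples. The groups did not overlap, and the 9 knockdown libraries (17.4 to 19.5 CPM) all lay below the 9 scrambled libraries (24.5 to 27.2 CPM). The mean fell from 26.0 ± 0.328 to 18.3 ± 0.190 CPM (SD, n = 3), a log2 fold change of -0.50. The libraries held 361 to 795 counts of TCN1 each. Their coefficient of variation was 3.23% among scrambled and 4.53% among knockdown libraries, where counting error alone gives 4.07% and 4.99%.

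TCN2, a paralog of TCN1, was the lowest of the 10 genes. It was at 2.06, 2.47 and 2.20 CPM in scrambled samples and at 2.86, 3.17 and 2.93 CPM in knockdown samples. Every knockdown sample lay above every scrambled sample, although single libraries, which held only 30 to 80 counts, did overlap and 4 of 9 knockdown libraries lay above all scrambled ones. TCN2 rose 1.33-fold (log2 fold change 0.41, SE 0.103, edgeR adjusted p = 0.00672, n = 3 per group). Without scrambled replicate 1 the value was 0.35 with an adjusted p of 0.0523.

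TCN2 overlaps PES1 on the opposite strand, and the strand setting of the counting is not given in the sources used here. PES1 was at 134 ± 2.86 CPM in scrambled and 135 ± 4.47 CPM in knockdown samples (SD, n = 3; log2 fold change 0.01, edgeR adjusted p = 0.798). Per count of TCN2, the scrambled samples held 12.8, 10.5 and 11.7 counts of TCN1. The knockdown samples held 6.44, 5.83 and 6.18. TCN1 had more counts than TCN2 in all 6 samples, by a smaller margin after knockdown. As TCN1 was chosen for its fall, the smaller margin follows in part from that choice and is only a description.

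**Figure D1:**
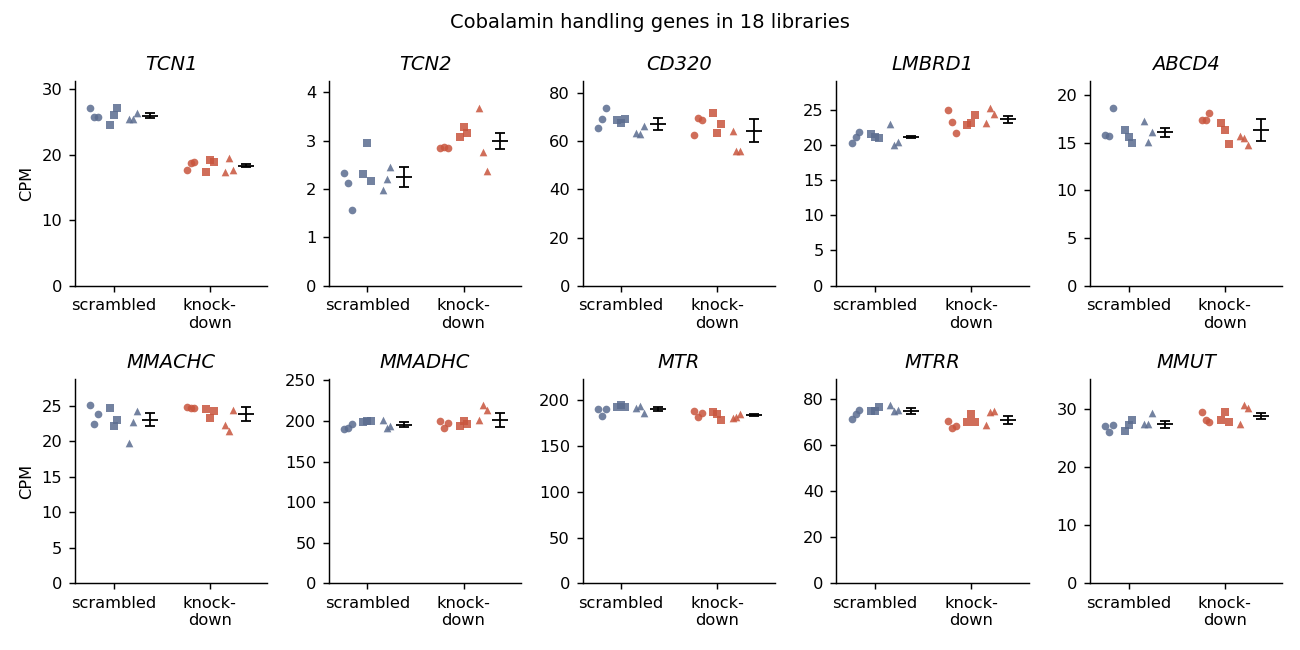
Each panel plots CPM on a linear axis from 0 for 1 gene in the 9 scrambled and 9 knockdown libraries, with a marker shape for each biological replicate and, in black, the mean and SD of the 3 summed replicates. TCN1 libraries separate without overlap, from 24.5 to 27.2 CPM against 17.4 to 19.5 CPM, while those of the other 9 genes overlap.

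CD320, the receptor for transcobalamin, showed no called difference. It was at 69.0, 68.3 and 64.1 CPM in scrambled samples and at 67.2, 67.2 and 58.7 CPM in knockdown samples. The low knockdown value is that of replicate 3, and the groups overlap. The fold of 0.959 had a 95% interval of 0.903 to 1.02 (edgeR adjusted p = 0.366).

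Of the lysosomal exporters, LMBRD1 rose and ABCD4 was not called. LMBRD1 was at 21.0, 21.2 and 21.1 CPM in scrambled samples and at 23.4, 23.3 and 24.2 CPM in knockdown samples. The groups did not overlap, and 7 of 9 knockdown libraries lay above all 9 scrambled libraries. The fold was 1.12 (log2 fold change 0.16, SE 0.041, edgeR adjusted p = 0.00687, n = 3 per group). ABCD4, which works with LMBRD1 at the lysosomal membrane, was at 16.1 ± 0.437 CPM in scrambled and 16.3 ± 1.17 CPM in knockdown samples (SD, n = 3). Its fold was 1.02, with a 95% interval of 0.947 to 1.09.

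The trafficking genes MMACHC and MMADHC were not called either. MMACHC, whose product strips the upper ligand from cobalamin, ranged from 22.1 to 23.8 CPM in scrambled and from 22.8 to 24.8 CPM in knockdown samples (fold 1.03, 95% interval 0.974 to 1.10). MMADHC was the most abundant of the 10 at 196 ± 3.45 and 201 ± 8.30 CPM (SD, n = 3), with a fold of 1.03 and an interval of 0.988 to 1.07. Its highest value, 211 CPM, was that of knockdown replicate 3.

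The enzyme genes differed by at most a few percent. MTR was at 188, 193 and 191 CPM in scrambled samples and at 186, 184 and 183 CPM in knockdown samples. MTRR, which encodes the reductase that reactivates methionine synthase, was at 73.3, 75.6 and 75.8 CPM and then at 69.0, 71.4 and 72.8 CPM. In both genes every knockdown sample lay below every scrambled sample, but neither passed the test, with edgeR adjusted p of 0.196 for MTR (fold 0.965, 95% interval 0.931 to 1.00) and 0.111 for MTRR (fold 0.949, 0.908 to 0.992).

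MMUT, the mitochondrial enzyme gene, lay the other way, at 26.8, 27.2 and 27.9 CPM in scrambled and 28.4, 28.5 and 29.3 CPM in knockdown samples (fold 1.05, 95% interval 1.000 to 1.11, edgeR adjusted p = 0.192). Its groups did not overlap in the summed samples.

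Of the 9 genes other than TCN1, edgeR called 2 raised and 0 lowered at an adjusted p below 0.05, where 18.6% of all 15678 tested genes were called, 11.1% raised and 7.49% lowered. At an unadjusted p below 0.05 there were 2 raised and 1 lowered, and DESeq2 called 2 raised and 0 lowered. Their median log2 fold change was 0.04, against 0.002 over all tested genes. Summed samples did not overlap for 5 of the 9, where 34.6% of all tested genes had no overlap. Without knockdown libraries 3_2 and 3_3, 2 of the 9 were called raised and 2 lowered, while 32.0% of all tested genes were called.

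**Figure D2:**
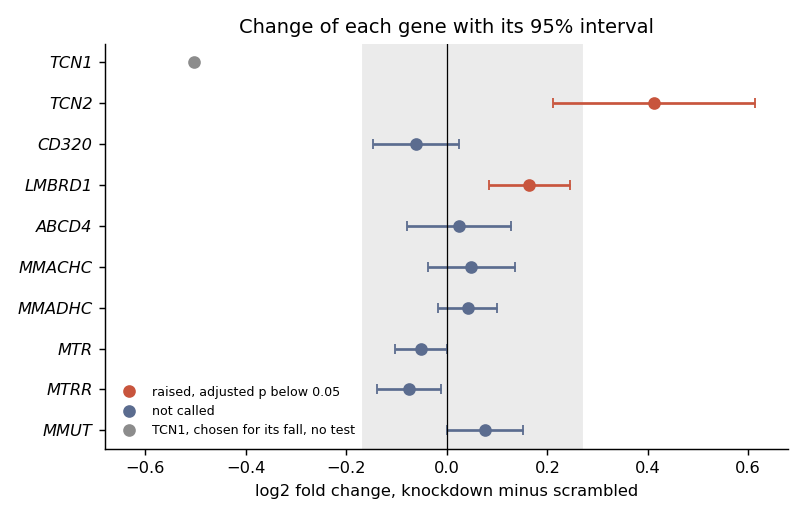
Points are log2 fold changes (knockdown minus scrambled, 3 summed replicates per group) from edgeR, with bars of 1.96 SE, and the grey band spans the 10th to 90th percentile of all tested genes (-0.17 to 0.27). TCN2 at 0.41 lies above the band and TCN1 at -0.50, drawn with no interval since it was chosen for its fall, lies below it.

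Levels between genes can be compared per length only, here as CPM per kilobase of merged GENCODE exons in scrambled cells, which understates genes with many annotated exons. On that scale MMADHC led at 89.3, followed by CD320 at 29.5, MTR at 16.8, TCN1 at 16.4 and MTRR at 11.5. MMUT was at 7.28, MMACHC at 4.35, LMBRD1 at 2.40, ABCD4 at 1.83 and TCN2 at 0.719. In knockdown cells TCN1 was at 11.6 per kilobase and MTRR at 10.9.

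Of 16 further genes of the cobalamin and propionate pathway 15 were tested, 1 was raised and 1 lowered, where 18.6% of all tested genes were called in either direction. Their median log2 fold change was 0.01. ALDH6A1, an enzyme of valine breakdown that feeds propionyl-CoA, went from 7.41, 7.65 and 7.02 CPM to 9.88, 9.54 and 9.71 CPM. It rose 1.32-fold (log2 fold change 0.40, SE 0.059, edgeR adjusted p = 5.21e-05, n = 3 per group). CUBN, which encodes the receptor for cobalamin bound to intrinsic factor, went from 3.15, 2.98 and 3.21 CPM to 2.10, 2.53 and 2.35 CPM, and fell by 0.42 on the log2 scale (SE 0.10, adjusted p = 0.00475).

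HCFC1, THAP11 and ZNF143, known regulators of MMACHC, were in the same list and had log2 fold changes of 0.01, 0.02 and -0.05, none of them called. Without knockdown libraries 3_2 and 3_3 the list had 2 raised and 3 lowered, where 32.0% of all tested genes were called.

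In the methionine and folate cycles, through which methionine synthase exchanges its substrates, 3 genes were raised and 6 lowered of 28 tested, out of 31 listed, where 11.1% of all tested genes were raised and 7.49% lowered. The median log2 fold change was -0.03. CTH, which makes cysteine from the homocysteine branch, was at 17.8, 17.8 and 17.4 CPM in scrambled samples and at 13.9, 14.0 and 15.2 CPM in knockdown samples, and fell by 0.30 on the log2 scale (SE 0.049, edgeR adjusted p = 0.000157, n = 3 per group).

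ALDH1L2 and MTHFD2, enzymes of mitochondrial folate metabolism, fell by 0.25 and 0.15 on the log2 scale (SE 0.042 and 0.029, edgeR adjusted p = 0.000205 and 0.00061). CTH, ALDH1L2 and MTHFD2 are also known as targets of the stress response factor ATF4. Called genes in this list depended on the samples used, with 4 lowered and 0 raised without scrambled replicate 1, 4 lowered and 1 raised without scrambled replicate 2, and 10 lowered and 4 raised without knockdown libraries 3_2 and 3_3. The share of all tested genes called was between 11.0% and 32.0% in those fits.

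**Figure D3:**
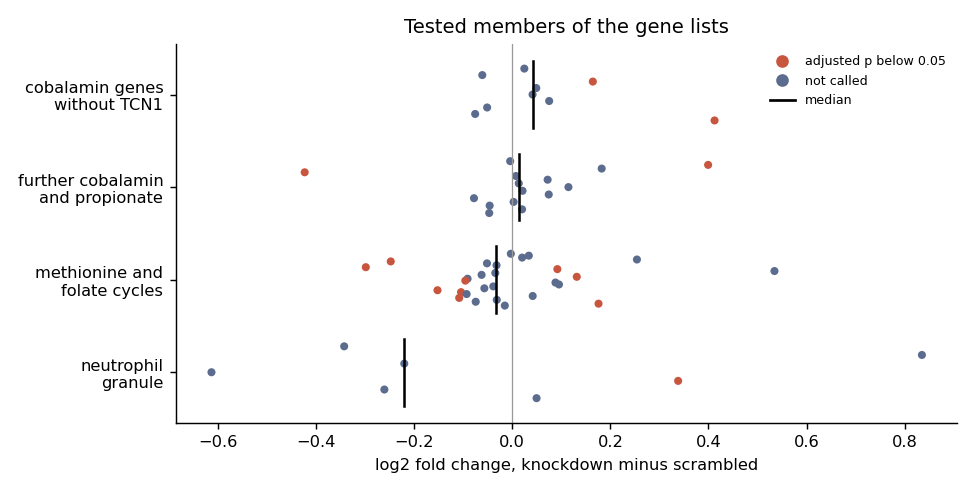
Each point is the log2 fold change (knockdown minus scrambled) of 1 tested gene in 4 lists, with called genes in red and the median as a black line. The medians are 0.04 for the cobalamin genes without TCN1, 0.01 for the further pathway genes, -0.03 for the methionine and folate cycles and -0.22 for the neutrophil granule genes.

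Since TCN1 is a granule gene, 24 other neutrophil granule genes were examined. Only 7 had enough counts to be tested, and 7 others were at 0 in all 18 libraries, among them MMP8, BPI, CTSG and the defensin gene DEFA4. The granule genes summed to between 43.6 and 45.7 CPM in scrambled and between 52.3 and 53.9 CPM in knockdown samples. LYZ, the lysozyme gene, made up most of that sum and was called raised, from 36.4 ± 0.886 to 46.0 ± 0.605 CPM (SD, n = 3; log2 fold change 0.34, SE 0.035, edgeR adjusted p = 5.05e-07). Of the 7 tested genes 4 had a negative log2 fold change. CYBB, the next highest, went from 5.27 ± 0.466 to 4.51 ± 0.378 CPM and was not called (edgeR adjusted p = 0.0701). The higher sum therefore reflects LYZ.

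In the granule list edgeR called 1 of 7 genes raised and 0 lowered, where 18.6% of all tested genes were called, with 2 raised and 2 lowered at an unadjusted p below 0.05 and 1 raised and 0 lowered by DESeq2. The median log2 fold change of the 7 was -0.22, and 2 were called raised and 1 lowered without knockdown libraries 3_2 and 3_3, where the share over all tested genes was 32.0%.

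The genes next to TCN1 on chromosome 11 were compared as well. Of the 5 nearest protein-coding genes on each side 5 were tested, of which 2 were lowered and 0 raised. At an unadjusted p below 0.05 there were 3 lowered and 0 raised, and DESeq2 called 2 lowered and 0 raised. Over all tested genes 7.49% were lowered and 11.1% raised at the adjusted threshold. MRPL16 is a mitochondrial ribosomal protein gene 41.9 kb from TCN1 between gene ends, with start sites 55.7 kb apart. It was at 83.6, 83.9 and 82.0 CPM in scrambled samples and at 69.2, 72.3 and 70.7 CPM in knockdown samples. It fell by 0.23 on the log2 scale (SE 0.031, edgeR adjusted p = 1.48e-05, n = 3 per group).

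STX3 is a syntaxin gene of membrane fusion 46.9 kb from TCN1 between gene ends, with start sites 153 kb apart. It was at 121, 120 and 119 CPM and then at 102, 104 and 107 CPM, and fell by 0.20 (SE 0.030, edgeR adjusted p = 4.41e-05). In STX3 and MRPL16 every knockdown sample lay below every scrambled sample, as was so for 16.5% of all tested genes. PATL1, an mRNA decay factor gene on the far side of STX3, had a log2 fold change of -0.07 and an adjusted p of 0.114. CBLIF, which encodes gastric intrinsic factor and sits next to TCN1, was at 0.312 ± 0.0924 and 0.350 ± 0.130 CPM (SD, n = 3). OOSP1 was at 0.690 ± 0.127 and 0.580 ± 0.178 CPM, while the olfactory receptor gene OR10V1 was at 0 in all libraries and OOSP2 was too low to test. The 3 other neighbours, OOSP3, OOSP4A and OOSP4B, were not analysed here.

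A wider window of 1000 kb on either side of the TCN1 start, chosen after the values of the neighbours were seen, held 16 other tested genes, of which 3 were lowered and 1 raised, where 7.49% and 11.1% of all tested genes were. The median log2 fold change was -0.06. MS4A3, a membrane protein gene of granulocyte and monocyte precursors and the third lowered gene, starts 190 kb from TCN1 and was named after its values were seen. It was at 84.1, 85.4 and 84.0 CPM in scrambled samples and at 67.5, 69.1 and 71.3 CPM in knockdown samples, and fell by 0.29 on the log2 scale (SE 0.032, edgeR adjusted p = 1.23e-06). OSBP, CCDC86 and PTGDR2, farther out, had log2 fold changes of -0.02, -0.03 and -0.06 and were not called. FAM111A, 724 kb away, was the raised gene at 0.16 (adjusted p = 0.0107, and 0.058 without scrambled replicate 1).

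**Figure D4:**
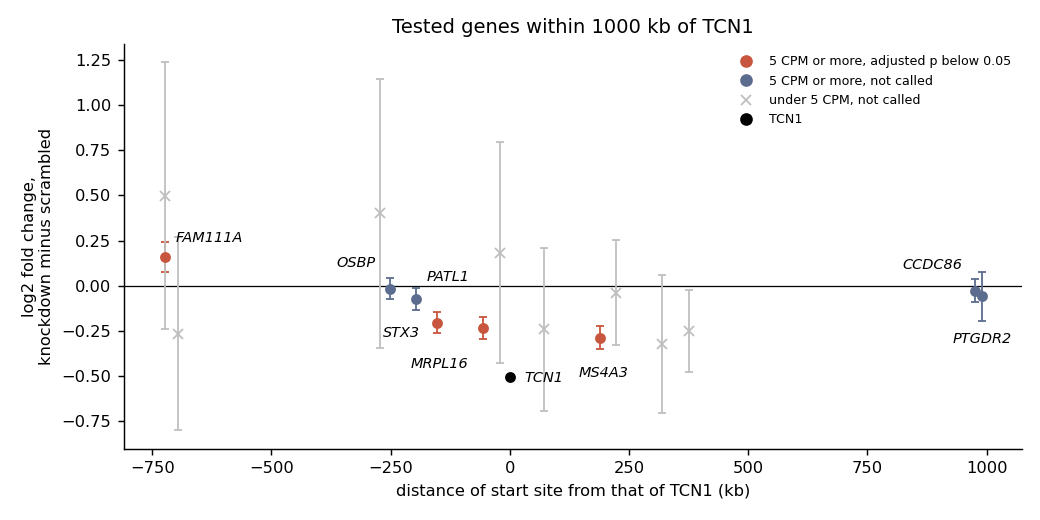
The plot gives the log2 fold change (knockdown minus scrambled, bars of 1.96 SE) of each tested gene against the distance in kb of its start site from that of TCN1. STX3 at -0.20, MRPL16 at -0.23 and MS4A3 at -0.29 were called lowered and FAM111A at 0.16 raised. PATL1 at -0.07, OSBP at -0.02, CCDC86 at -0.03 and PTGDR2 at -0.06 were not called. Genes under 5 CPM, among them CBLIF at 0.18 and OOSP1 at -0.24, have wide bars and were not called.

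The genes whose log2 CPM followed TCN1 most closely over the 18 libraries, among 10479 genes at 5 CPM or more, were SPEN (Pearson r = 0.980), ATF4 (0.972), LOC102724908 (0.969), GAS5 (0.965) and MDN1 (0.962). These correlations include the difference between the groups that TCN1 was chosen for, and the libraries share depth and handling. With each library centred on its group mean the closest were SLC7A6 (0.732), DGCR6 (0.708), ARHGAP6 (0.701), PARD6B (0.686) and COPG1 (0.681), none of which is in the first set. These are the highest values among 10479 genes. TCN1 varied by 3.23% among scrambled and 4.53% among knockdown libraries, where counting error alone gives 4.07% and 4.99%. Whether the centred correlations exceed what counting error gives was not tested.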

How the data were processed

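Trim Galore, STAR, featureCounts and the GRCh38 build are named in the submitters' processing notes. No version, annotation or strand setting is given in the sources used here. What the authors deposited is a table of raw counts per gene symbol for 18 libraries, whose groups came from the sample titles, and libraries with the same first number in the title were added up to 1 biological replicate.

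Knockdown was compared with scrambled by edgeR's robust quasi-likelihood test (edgeR 4.0.16, R 4.3.3), after filterByExpr and TMM scaling, and p-values were adjusted by Benjamini-Hochberg over 15678 genes. SEs are the log2 fold change divided by the root of the F statistic, and 95% intervals are 1.96 SE. On simulated counts for knockdown against scrambled (15678 genes, 200 changed), the test recovered 59.7% of 1.2-fold changes, 82.1% of 1.5-fold changes and 90.9% of 2-fold changes, with 9 false calls. The simulated counts were drawn independently and held no GC effect of single libraries. In the data 18.6% of tested genes were called, so these rates need not hold for them.

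The members, the gene lists and the omission of knockdown libraries 3_2 and 3_3 were chosen with earlier results of these data known. Named were all members, up to 3 called genes per list by smallest p, the tested neighbours of TCN1 and the 5 genes most like TCN1 by each measure. Genes named from the wider window around TCN1 fall outside this rule, and that window was chosen after the neighbours' values were seen. Alternatives included DESeq2 1.42.0, other scaling and filters, a replicate block, other sums of libraries, correction of each sample for transcript GC content by lowess (span 0.3), known for 96.4% of tested genes, and each replicate left out. Positions, exon lengths and GC content came from GENCODE 29. Likeness used log2(CPM + 0.1). A marker gene is not reported here.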

Additional observations from a re-analysis of the deposited data

How the results depend on the processing

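Across 17 alternatives LMBRD1, ALDH6A1, CUBN, CTH, ALDH1L2, MTHFD2, LYZ, MRPL16, STX3 and MS4A3 were called in each and in 1 direction. TCN2 was called in 16 of 17 (0.35 to 0.49), MTRR in 7, MTR in 6 and CD320 in 3. MTRR lay between -0.098 and -0.055 and MTR between -0.062 and -0.041. CD320 lay between -0.094 and -9.15e-05. It was at -0.013 without knockdown libraries 3_2 and 3_3 and at -9.15e-05 without knockdown replicate 3. The value of TCN1 lay between -0.51 and -0.49. Of the 9 cobalamin genes without TCN1, 2 were called, but 4 with libraries entered singly, 5 when summed by the second number, 4 without knockdown libraries 3_2 and 3_3, 5 with GC correction, 5 with GC correction and the replicate block, and 1 to 4 with 1 replicate left out (1 without scrambled replicate 1, 4 without knockdown replicate 3). The further pathway genes had 2 called, 5 without those libraries and 2 to 3 with a replicate left out. The methionine and folate genes had 9 called, then 14, 15, 14, 16 and 16 in the same 5 settings as the cobalamin genes, and 4 to 12 with a replicate left out. The granule genes had 1 called, 3 with no count filter, 3 with the replicate block, 2, 3, 3, 3 and 2 in those 5 settings, and 1 to 3 with a replicate left out (3 without knockdown replicate 3). The neighbours of TCN1 had 2 called and 2 to 3 in the alternatives. Over all genes 2920 were called, 4939 with GC correction, 4978 when summed by the second number, 5015 without those knockdown libraries, 1755 without scrambled replicate 1, 1813 without scrambled replicate 2 and 4762 without knockdown replicate 3. As a share of all tested genes these calls were 18.6% in the main fit and 30.2% with libraries entered singly. The share was 31.8% when summed by the second number and 32.0% without those knockdown libraries. It was 31.5% with GC correction, 31.6% with GC correction and the block, and 25.4% with the block alone. With no count filter it was 13.5%, and with 1 replicate left out 11.0% to 29.8%. The cause of these shifts was not tested.

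The replicate numbers were taken as names only. Deviations of same-numbered samples correlated at 0.030, 0.011 and 0.011 for replicates 1, 2 and 3, and knockdown replicate 3 correlated best with scrambled replicate 2. With the replicate block 3 of the 9 cobalamin genes were called (MTRR at an edgeR adjusted p of 0.0434 joined). So were 3 further pathway genes, 11 methionine and folate genes and 3 neighbours of TCN1, with 3985 (25.4%) of all tested genes. TCN2 had 30 to 80 counts per library, which limits its precision.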

Other observations

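Log2 CPM of the 10 cobalamin genes was compared in all 45 pairs over the 18 libraries, centred on their group means. Pearson r lay between -0.5 and 0.5 in 35 pairs, at 0.5 or above in 6 and at -0.5 or below in 4. MMADHC and MTRR had a Pearson r of 0.809, MTRR and MMUT 0.697, and LMBRD1 and MMADHC 0.625, while CD320 had -0.713 with MMADHC, -0.642 with MTRR and -0.615 with MMUT. The GC content of the longest transcript is 42.2% for both MMADHC and MTRR, 38.8% for MMUT, 36.9% for LMBRD1 and 61.1% for CD320. Over the 16 libraries left without knockdown 3_2 and 3_3 the values were 0.650 for MMADHC with MTRR, 0.505 for MTRR with MMUT, 0.485 for LMBRD1 with MMADHC and -0.254, -0.292 and -0.315 for CD320 with MMADHC, MTRR and MMUT. The part of GC content in these relations was not tested. TCN1 had r between -0.255 and 0.343 with the other 9 genes.

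Other members overlap genes on the opposite strand, as TCN2 does. PRDX1, which encodes a peroxiredoxin and overlaps MMACHC, was at 437 ± 5.83 CPM in scrambled and 418 ± 4.58 CPM in knockdown samples (SD, n = 3), with a log2 fold change of -0.06 and an edgeR adjusted p of 0.0617. FASTKD3, which overlaps MTRR, was at 21.3 ± 0.564 and 21.9 ± 1.13 CPM, and CCDC163, which overlaps MMACHC, at 5.41 ± 0.0898 and 5.84 ± 0.370 CPM, neither called.

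Lymphoid marker genes were low. Of 4 tested, 3 were called raised, CD3D and RAG1 among them, and 0 lowered. Of the 10 erythroid markers 4 were raised and 1 lowered, and of 3 tested monocyte markers 0 were raised and 1 lowered. Over all tested genes 11.1% were raised and 7.49% lowered. CD3D was at 4.67 ± 0.256 CPM in scrambled and 6.43 ± 0.111 CPM in knockdown samples (SD, n = 3), and RAG1 at 7.60 ± 0.249 and 9.08 ± 0.621 CPM.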
